A study of Rattus norvegicus with 55 samples.

Results

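Cela1, Ptprj and Cyfip2 are 3 rat genes outside the major histocompatibility complex (MHC) whose kidney signal was higher on the arrays that read high on X56596_at, 1 of 5 probe sets of the MHC class II gene RT1-Bb. Of the other RT1-Bb probe sets, M36151cds_i_at and U65217_i_at were lower on the same arrays, M36151cds_s_at mostly overlapped, and M15358cds_at was dim. The members were all probe sets annotated to these genes, which came to 3 of the 8799 on the array, 1 for each gene: L00117_at for Cela1, U40790_at for Ptprj and rc_AA893984_at for Cyfip2. All 3 passed the filter on low values that left 6555 probe sets. They were chosen from the measured values: within each stage description, arrays with an intensity above 600 on X56596_at were set against arrays below 600. Differences between the sides of 600 are therefore a description with no test, and only stage comparisons among arrays of the same side were tested.

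The series holds 55 one-colour Affymetrix arrays of total RNA from rat kidney. The titles read SHR kidney, where SHR usually abbreviates spontaneously hypertensive rat, while the descriptions give Wistar-derived rat kidney throughout. The descriptions make 13 arrays immature, 14 young and 14 mature, and a further 14 carry no stage word and are called unworded here. No age, sex, diet, treatment or genotype stands in the labels, no label separates the sides of 600, and whether each array is a different animal is not stated. The p-values below therefore reflect only how far these samples vary, and that variation may be technical. Precision is limited by how many arrays there are.

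Cela1 encodes chymotrypsin-like elastase 1, a secreted serine protease of digestive secretions that is also transcribed in several other tissues. Ptprj encodes a receptor-type tyrosine phosphatase of the cell surface, also called DEP-1 or CD148, which removes phosphate from signalling proteins at the membrane. Cyfip2 encodes a subunit of the WAVE regulatory complex, through which the small GTPase Rac drives branching of actin filaments. RT1-Bb encodes the beta chain of the rat class II molecule RT1-B, which presents peptides to CD4 T cells. RT1-Ba encodes its alpha chain.

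The start regions of the 3 members and of RT1-Bb are shown because the members were chosen for following 1 probe set of RT1-Bb across arrays. Each sequence is the 250 bases before the annotated gene start, 5′ to 3′ on the gene's strand, from RefSeq, assembly GRCr8, where all 4 genes were matched. All 4 genes lie on the minus strand, at chr7:133665062-133665311 for Cela1, chr3:97017657-97017906 for Ptprj, chr10:31242441-31242690 for Cyfip2 and chr20:4604119-4604368 for RT1-Bb. Capitals mark the motifs found.
Cela1: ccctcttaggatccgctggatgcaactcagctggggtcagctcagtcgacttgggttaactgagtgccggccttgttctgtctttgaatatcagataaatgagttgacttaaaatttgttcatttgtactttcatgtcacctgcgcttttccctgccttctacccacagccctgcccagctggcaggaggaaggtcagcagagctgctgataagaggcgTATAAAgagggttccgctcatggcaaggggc
Ptprj: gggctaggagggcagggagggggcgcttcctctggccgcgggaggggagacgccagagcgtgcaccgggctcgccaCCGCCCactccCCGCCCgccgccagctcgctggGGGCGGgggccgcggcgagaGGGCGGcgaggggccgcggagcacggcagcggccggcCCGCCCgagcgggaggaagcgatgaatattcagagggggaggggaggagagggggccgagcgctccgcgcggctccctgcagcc
Cyfip2: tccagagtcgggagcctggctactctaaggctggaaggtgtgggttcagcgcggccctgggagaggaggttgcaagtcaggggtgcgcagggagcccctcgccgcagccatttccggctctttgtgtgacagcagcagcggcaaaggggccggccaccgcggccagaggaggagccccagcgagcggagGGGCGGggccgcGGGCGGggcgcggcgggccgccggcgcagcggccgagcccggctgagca
RT1-Bb: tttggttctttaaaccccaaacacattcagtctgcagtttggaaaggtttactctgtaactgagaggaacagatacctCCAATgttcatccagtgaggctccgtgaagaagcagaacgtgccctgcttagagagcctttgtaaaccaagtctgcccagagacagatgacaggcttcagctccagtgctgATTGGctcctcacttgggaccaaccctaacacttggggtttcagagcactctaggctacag

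None of the short motifs searched was present in all 4 windows, though Ptprj and Cyfip2 both held the GC box. The motifs were picked after the sequences were seen and searched on both strands. The TATA box was searched as TATAAA. The CAAT box was searched as CCAAT. The GC box was searched as GGGCGG, and no match of one motif overlapped a match of another. Cela1 held 1 TATAAA, 31 to 26 bases before the start, a motif present in 12.9% of the 33469 windows of this length in the table. Ptprj held 5 GC boxes and Cyfip2 held 2, against 30.5% of windows with at least 1. RT1-Bb held 2 CAAT boxes, 1 on each strand, against 34.0% of windows with at least 1. The GC content was 51.2% for Cela1, 79.2% for Ptprj, 74.0% for Cyfip2 and 48.8% for RT1-Bb, and the median over all windows was 51.2%. A match is a description of the letters and not a binding site.

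No array lay near the threshold. X56596_at read 1411.5 to 2381.2 (median 1740.3) on 12 arrays and 80.1 to 263.0 (median 147.6) on the other 43. The 12 high arrays were 3 in each stage description, namely immature replicates 1, 2 and 3, young replicates 1, 2 and 14, and replicates 4, 8 and 12 of both the mature arrays and the arrays without a stage word. The highest array below 600, young replicate 12, read 263.0 for X56596_at, 302.7 for Cela1, 101.6 for Ptprj and 144.3 for Cyfip2. The lowest array above 600, immature replicate 3, read 1411.5, 1292.7, 752.3 and 570.4 for the same probe sets.

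Control probe sets split the arrays into 3 sets, called batches here although the labels name none. Batch 1 held 3 immature and 3 mature arrays above 600, with 3 immature and 1 mature below. Batch 2 held 3 arrays above and 3 below for both the young group and the group without a stage word, and 7 immature arrays below. Batch 3 held 26 arrays, all below 600. The 3′/5′ signal ratio of GAPDH, a sign of RNA quality, was 0.891 to 2.62 above 600 and 0.827 to 7.18 below. Below 600, mature replicates 1 and 9 read 7.18 and 3.47. Mature replicate 5, the 1 mature array below 600 in batch 1, read 1.45. Its 3′/5′ ratio of actin was 2.75, against a median of 1.53 below 600, and each mature ratio of the sides inside batch 1 rests on it. The defining markers of kidney tubule were high on both sides: the summed intensity of 15 proximal tubule genes was 58035 to 87192 above 600 and 53316 to 116780 below.

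Cela1 had the widest gap of the members between the nearest arrays of the sides, taking the smallest gap over the 4 stage descriptions with all arrays. By ratio Ptprj exceeded it in young and unworded kidney, and inside batch 1 in immature and mature kidney. On the immature arrays above 600 it read 911.5, 1406.9 and 1292.7, and on the 10 below it read 165.5 at the lowest, 215.9 at the median and 318.2 at the highest. On the young arrays above 600 it read 1286.2, 1341.5 and 1421.9, against 223.2, 328.0 and 510.7 for the lowest, median and highest of 11 below. Every array above 600 thus exceeded every array below 600 in both groups. The arrays without a stage word above 600 read 1473.2, 1357.2 and 1369.7, against 300.5, 417.6 and 482.8 below. The mature arrays above 600 read 1576.2, 1582.9 and 1364.2, against 258.5, 367.0 and 520.5 below. The lowest value above 600 in the whole series, 911.5 on immature replicate 1, still lay above the highest below, 520.5 on mature replicate 5.

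On the log2 scale the mean of Cela1 was 10.23 ± 0.33 (SD, n = 3) above and 7.90 ± 0.31 (SD, n = 10) below 600 in immature kidney, a ratio of 5.01-fold. The ratio was 3.93-fold in young kidney, 3.45-fold in the group without a stage word and 3.88-fold in mature kidney. Inside a batch it was 4.44-fold for the immature arrays of batch 1, 5.60-fold for the young and 2.96-fold for the unworded arrays of batch 2, and 2.83-fold for mature arrays of batch 1, where only 1 array lay below. Separation inside both batches that hold both sides was fixed by the choice of Cela1, whose sides do not overlap within any stage description. In bulk kidney, a change in the number of cells that express a gene and a change in RNA per cell cannot be told apart. Each member was read by 1 probe set, and probe sets of RT1-Bb went in opposite directions on these arrays. Whether the signal of a member follows its RNA was not tested.

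Ptprj was likewise higher on every array above 600, but its level there differed between pairs of stage groups. It read 558.2, 536.6 and 752.3 on the immature and 540.5, 586.4 and 547.2 on the mature arrays above 600, all of batch 1. It read 949.3, 898.2 and 977.9 on the young arrays and 885.8, 844.6 and 892.5 on those without a stage word, all of batch 2. The 6 arrays of batch 2 thus all exceeded the 6 of batch 1, and batch and these pairs of stages cannot be told apart. Below 600 the lowest, median and highest values were 34.4, 311.4 and 373.5 in immature, 101.6, 212.1 and 387.2 in young, 57.2, 221.6 and 354.5 in unworded and 56.2, 191.0 and 292.6 in mature kidney.

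Below 600 the level of Ptprj varied with the batch inside a stage group. It read 34.4 to 73.4 on the 4 arrays of batch 1, 263.4 to 387.2 on the 13 of batch 2 and 56.6 to 292.6 on the 26 of batch 3. The 7 immature arrays of batch 2 (median 331.6) all exceeded the 3 of batch 1 (median 72.5), so the spread of immature kidney, 7.76 ± 1.11 on the log2 scale (SD, n = 10), spans these batches. The ratio of the sides was 2.88-fold in immature, 4.22-fold in young, 4.19-fold in unworded and 3.48-fold in mature kidney over all arrays. Inside batch 1 it was 8.51-fold in immature and 7.96-fold in mature kidney, the latter with 1 array below, and inside batch 2 it was 2.54-fold in young and 2.75-fold in unworded kidney. The size of the Ptprj difference moved with the batch, and the part of the batch in it was not tested. Its direction inside a batch was fixed by the choice of Ptprj, whose sides do not overlap within any stage description.

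Cyfip2 had the smallest ratio between the sides in each stage description, over all arrays and inside batches. It read 536.5, 618.8 and 570.4 on the immature arrays above 600, and 238.8, 345.0 and 408.7 at the lowest, median and highest below. On young arrays it read 615.3, 623.5 and 626.6 above 600, against 144.3, 314.4 and 413.4 below. The 3 young arrays above 600 were almost equal, with an SD of 0.01 around a mean of 9.32 on the log2 scale (n = 3). On arrays without a stage word it read 543.0, 529.2 and 594.9 above 600, against 191.2, 342.0 and 404.6 below. On mature arrays it read 565.5, 797.3 and 637.7 above, against 49.7, 249.9 and 446.6 below, and the sides again did not overlap.

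The ratio of the sides for Cyfip2 was 1.66-fold in immature, 1.99-fold in young, 1.68-fold in unworded and 2.66-fold in mature kidney. Inside batches these ratios were 1.55-fold for immature and 1.76-fold for mature kidney in batch 1, the latter with 1 array below. In batch 2 they were 1.65-fold for young and 1.51-fold for unworded kidney. The mature ratio over all arrays included mature replicate 1 at 49.7, the array with the GAPDH 3′/5′ ratio of 7.18. Without that array the mature difference was 1.22 on the log2 scale, against 1.41 with it.

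**Figure D1:**
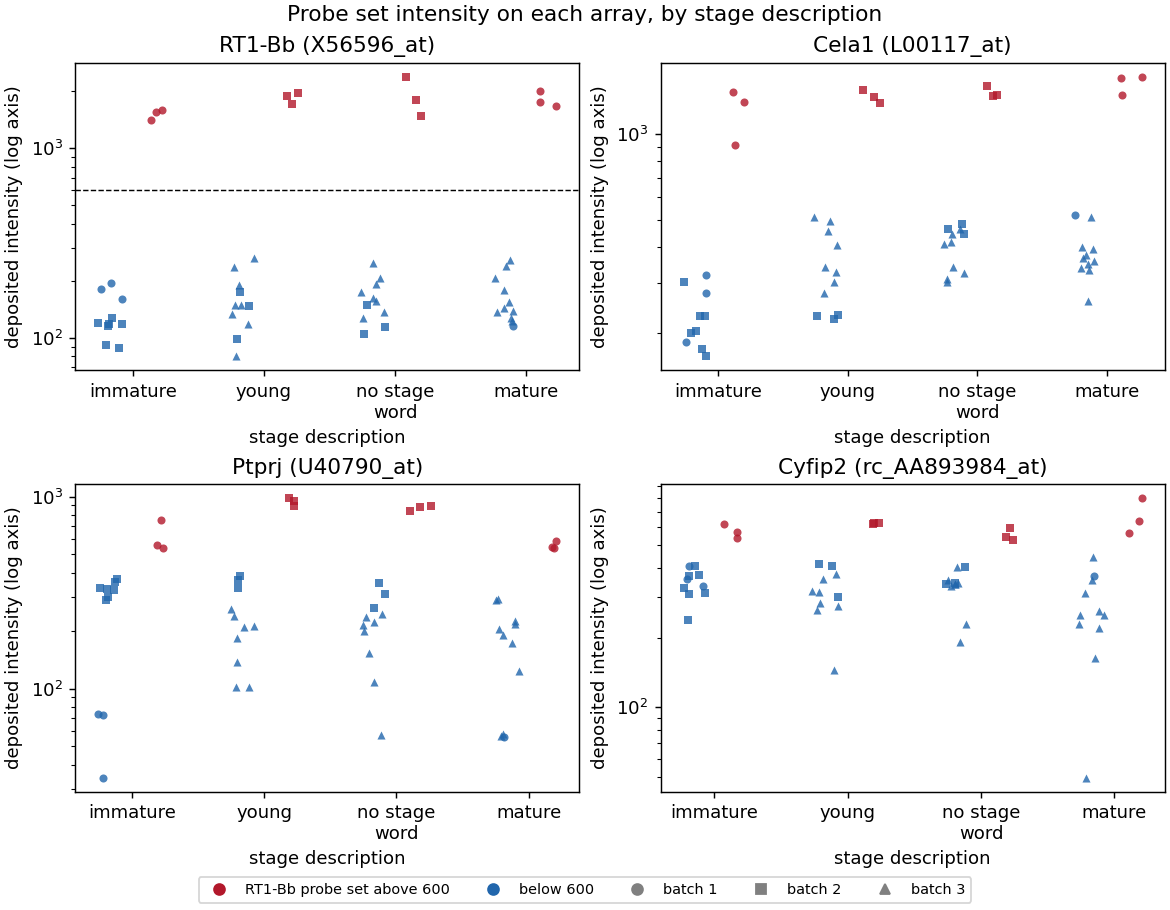
Deposited intensity (log axis) of X56596_at, which set the sides, and of the probe sets of Cela1, Ptprj and Cyfip2 on each of the 55 arrays, by stage description. Red marks the 12 arrays above 600 on X56596_at and blue the 43 below, marker shape gives the batch, and the dashed line is 600; in every panel and stage the red points lie above the blue ones, with the smallest gaps for Cyfip2.

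**Figure D2:**
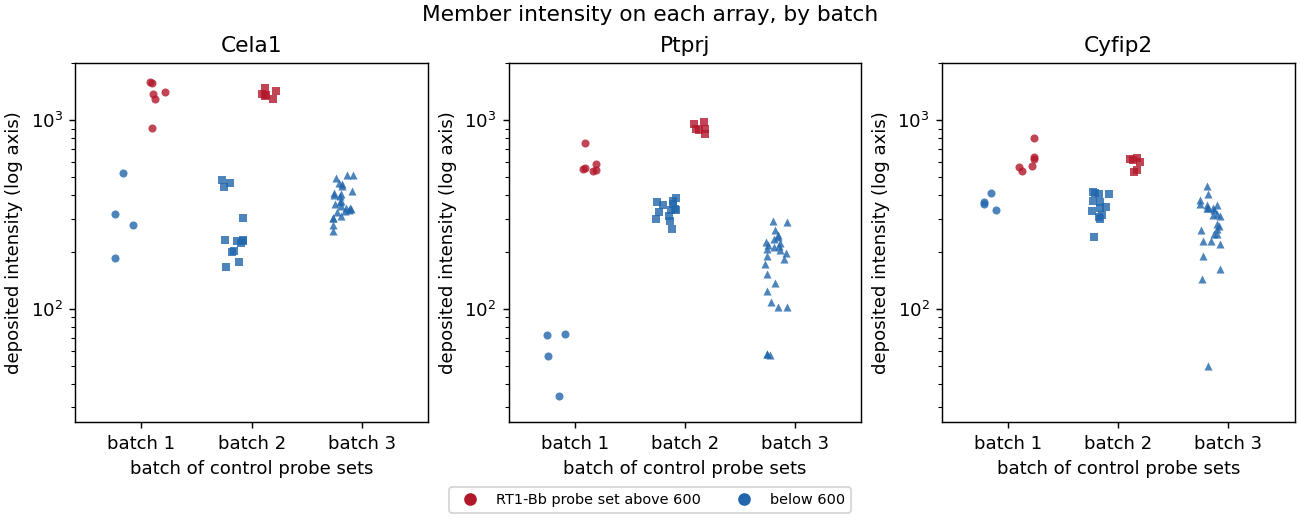
Deposited intensity (log axis) of Cela1, Ptprj and Cyfip2 on each array by batch of control probe sets, red above and blue below 600 on X56596_at. Ptprj below 600 reads 34.4 to 73.4 in batch 1, 263.4 to 387.2 in batch 2 and 56.6 to 292.6 in batch 3, which holds no array above 600.

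Sides that do not overlap were uncommon among all probe sets, but the members were picked for it. In immature kidney 1.19% of the 6555 probe sets had all arrays above 600 higher than all below, and all 3 members were among them. The share was 3.37% in young, 2.79% in unworded and 2.87% in mature kidney, with all 3 members again included. In all 4 stage descriptions at once it was 0.259%, or 17 probe sets, and 0.0915%, or 6 probe sets, were lower in all 4. Since the rule used this contrast, the members' counts give no support to anything.

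Averaged over the 4 stage descriptions, the difference above minus below 600 was 2.01 for Cela1 on the log2 scale, the fifth largest rise of 6555 probe sets. It was 1.87 for Ptprj, rank 8, and 0.97 for Cyfip2, rank 31. The median over all probe sets was -0.02, and the 5th and 95th percentiles were -0.46 and 0.38.

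The probe sets of RT1-Bb itself did not move together. X56596_at was higher above 600 by 10.7-fold in immature and 11.2-fold in young kidney. M36151cds_i_at went the other way, at 2.1 to 5.8 above 600 against 7.1 to 1166.6 below, and U65217_i_at read 0.9 to 23.7 above against 174.2 to 877.0 below. Both were lower above 600 with no overlap in all 4 stage descriptions. M36151cds_s_at read 469.7 to 1585.6 above and 275.3 to 1526.3 below, and its sides overlapped in all stages but the group without a stage word. M15358cds_at fell below the filter on low values. The sides of 600 were thus separated on 3 RT1-Bb probe sets, 1 in one direction and 2 in the other. On M36151cds_i_at 3 mature arrays below 600 also read low, replicates 1, 9 and 5 at 10.4, 7.1 and 40.6. These had the highest 3′/5′ ratios of the mature arrays below 600, at 7.18, 3.47 and 1.45 for GAPDH and 5.08, 5.55 and 2.75 for actin. They also read lowest of those arrays on M36151cds_s_at (275.3, 476.8 and 596.9) and for Ptprj (56.6, 57.7 and 56.2). The part of RNA quality in these values was not tested.

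**Figure D3:**
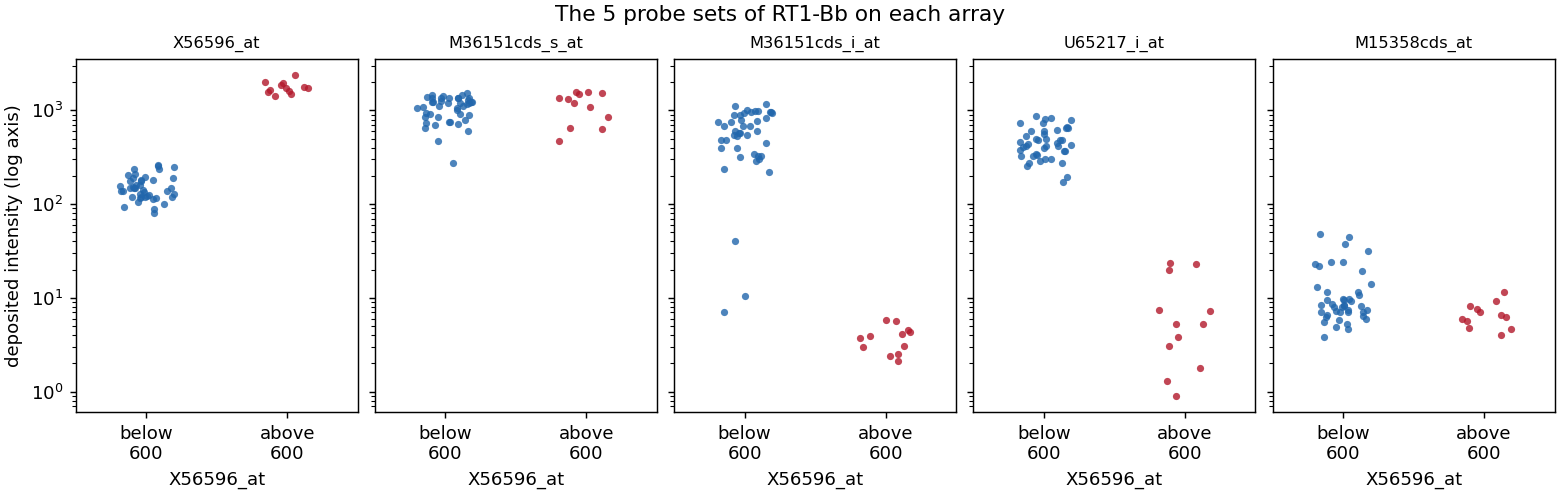
Deposited intensity (log axis) of the 5 probe sets of RT1-Bb on each array, for the 43 arrays below and the 12 above 600 on X56596_at. X56596_at is higher above 600, M36151cds_i_at and U65217_i_at are lower, M36151cds_s_at overlaps, and M15358cds_at is dim on both sides.

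The genes of most similar pattern came partly from the MHC and partly from outside it. Likeness was ranked by the number of stage descriptions without overlap and then by the smallest gap between the nearest arrays of the sides, over 55 arrays. After X56596_at itself, with a gap of 2.51 on the log2 scale, came Cela1 with 1.31. RT1-Ba (K02815_s_at) followed with a gap of 0.93, at 1805.1 to 3594.5 above and 456.2 to 1112.5 below 600. Ephx2, the soluble epoxide hydrolase that breaks down epoxides of fatty acids, had gaps of 0.88 on X60328_at and 0.62 on X60328_g_at. It read 357.7 to 758.2 above and 12.2 to 340.3 below on the first of these. RT1-Db1 (X53054_at), a class II beta chain of the RT1-D molecule, had a gap of 0.70. Ptprj had a gap of 0.50, rank 7, and Cyfip2 of 0.33, rank 8.

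In the opposite direction the leading probe sets were U65217_i_at of RT1-Bb (gap 2.28), U33500_g_at of Rdh16, a retinol dehydrogenase (0.15), and M36151cds_i_at of RT1-Bb (0.08). RT1-CE12, an MHC class I gene, and Itga1, the integrin alpha 1 chain, followed with 3 stage descriptions each. Rdh16 read 139.6 to 588.1 above and 571.5 to 2077.0 below 600. Counting members, 17 probe sets with a gene symbol, of 11 genes, did not overlap in all 4 stage descriptions, 14 of them higher and 3 lower above 600, and 7 of these probe sets belong to genes on the chromosome of RT1-Bb. Those outside the naming rule, listed after their values were seen, were further probe sets of Ephx2, RT1-Db1 and RT1-Ba, and Lgals1, Aif1l and Bhmt. Lgals1 encodes galectin-1, a lectin that binds galactosides, and Bhmt the betaine-dependent methyltransferase that remethylates homocysteine.

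**Figure D4:**
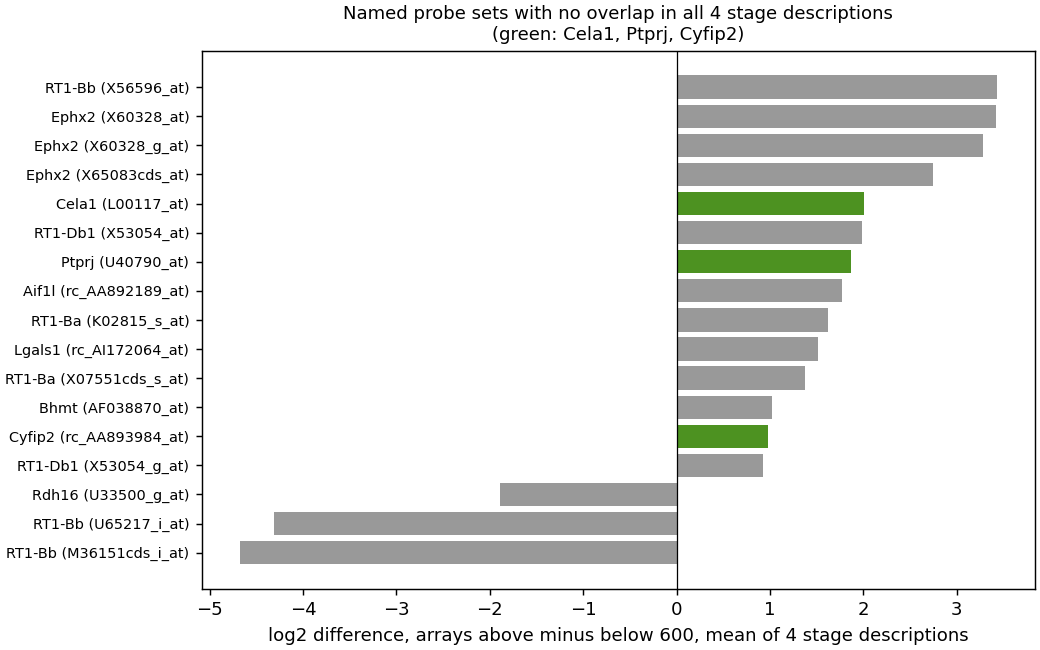
Log2 difference, arrays above minus below 600 on X56596_at, averaged over the 4 stage descriptions, for the 17 named probe sets whose sides do not overlap in all 4. Cela1 (2.01), Ptprj (1.87) and Cyfip2 (0.97) are green; the 3 bars to the left of 0 are Rdh16 and 2 probe sets of RT1-Bb.

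The 3 members lie on 3 different chromosomes, and none on that of RT1-Bb. Their neighbours in gene order (assembly GRCr8, up to 5 tested genes on either side) mostly overlapped between the sides. Of the 10 around Cela1, Gpd1 alone did not overlap, in 1 stage description, and of the 10 around Ptprj, Mtch2 alone, in 1. None of the 10 around Cyfip2 did so in any. In a single stage description 1.19% to 3.37% of all probe sets were higher above 600 without overlap. The counts around the members therefore do not set these neighbours apart. Around RT1-Bb, RT1-Db1 and RT1-Ba were higher above 600 in all 4, as 0.259% of all probe sets were. Psmb8, an immunoproteasome subunit, was lower in 2.

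Other pancreatic enzyme genes were not separated as Cela1 was, which was picked for its separation. Of 23 genes listed as acinar, 18 were on the array and 9 passed the filter. Above 600, 0 of the 9 were higher or lower in all 4 stage descriptions. Over all probe sets 0.259% were higher and 0.0915% lower in all 4, so a count of 0 does not set these acinar genes apart. Their median difference was -0.04 on the log2 scale, against -0.02 over all probe sets, and their summed intensity was 1266 to 1942 above and 993.0 to 2202 below. Cel and Spink1 were higher above 600 in 1 stage description each. Cela2a, another elastase, read 252.3 to 429.2 above and 163.5 to 563.9 below 600. Prss1, a trypsinogen, read 10.2 to 147.3 above and 32.2 to 157.4 below, and Amy2a3, pancreatic amylase, was dim on both sides at 7.9 to 59.3 and 3.6 to 115.2.

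Relatives of Ptprj were not separated in all 4 stage descriptions either. Of 21 receptor tyrosine phosphatase and associated genes listed, 17 were on the array and 12 were tested, with a median difference of -0.06. In all 4 stage descriptions 0 were separated. That count is near the shares over all probe sets, 0.259% higher and 0.0915% lower, and does not set the relatives apart. Ptprf read 851.3 to 1960.1 above and 939.2 to 2161.2 below. Ptprr was the exception in 1 stage description, higher above 600, and read 33.7 to 192.0 above and 16.8 to 263.3 below over all stages. Ptprc, the leukocyte antigen CD45, read 80.0 to 206.1 above and 41.1 to 431.0 below.

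For the partners of Cyfip2, 5 of the 7 genes of the WAVE complex and Rac list found on the array were tested. Their median difference was -0.19, and 0 were separated in all 4 stage descriptions. That count is near the shares over all probe sets, 0.259% higher and 0.0915% lower, and does not set these genes apart. Nckap1, which pairs with Cyfip proteins in the complex, read 646.6 to 2389.8 above and 127.8 to 2407.6 below, and was separated in 1 stage description. Rac1 read 423.1 to 928.6 above and 243.4 to 703.0 below, and was also separated in 1. Arpc4 and Arpc1b, subunits of the Arp2/3 complex, were lower above 600 in 1 stage description each.

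Leukocyte markers were not higher on the side where the members were high. The 13 tested of 20 on the array summed to 2929 to 4973 above and 3190 to 7117 below 600, with a median difference of -0.12. Lyz2, lysozyme of myeloid cells, read 792.8 to 2775.3 above and 956.7 to 4425.3 below. Of 9 tested class II and antigen loading genes, RT1-Ba and RT1-Db1 were higher above 600 in all 4 stage descriptions, as 0.259% of all probe sets were. Cd74, the invariant chain, read 2429.6 to 4778.2 above and 3065.0 to 17236 below, and RT1-Da 2414.2 to 5906.6 and 2864.6 to 7816.2. Of 11 class I and peptide loading genes 0 were higher and 0 lower without overlap in all 4 stage descriptions. Over all probe sets 0.259% were higher and 0.0915% lower in all 4, so these counts do not set the class I genes apart. Their median difference was -0.21, against -0.02 over all probe sets. RT1-CE12 was lower in 3 stage descriptions, and RT1-A3, RT1-CE16 and Psmb8 in 2 each. The part of these cell types in the members' difference was not tested.

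Among arrays below 600, Cela1 was higher in each of the other groups than in immature kidney, Cyfip2 was lower in mature kidney, and Ptprj did not pass the test. In limma, with Benjamini-Hochberg adjustment over the 6555 probe sets, Cela1 was higher in mature than immature kidney by 0.71 ± 0.14 on the log2 scale (SE), or 1.64-fold, with an adjusted p of 7.7e-05. It was higher in young than immature kidney by 0.54 ± 0.14, or 1.45-fold (adjusted p 0.0033), and in the group without a stage word by 0.78 ± 0.14, or 1.71-fold (adjusted p 1.8e-05). Over all probe sets 14.2% were higher in the first of these comparisons, 10.6% in the second and 16.4% in the third. Of the 18 comparisons made below 600 (3 members, 6 pairs of groups), 4 passed, and 5 had an unadjusted p under 0.05. With stage groups that ignore the sides 0 of 18 passed. Counting both directions, 31% of all probe sets passed in mature, 21.7% in young and 32.2% in unworded against immature kidney. The shares were 0.931% for mature against young, 0.427% for mature against unworded and 0.061% for unworded against young kidney.

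Batch bears on the young comparison of Cela1. The 3 young arrays of batch 2 below 600 read 223.2, 230.7 and 230.0, and the 8 of batch 3 read 276.0 to 510.7, while the 7 immature arrays of batch 2 had a median of 203.2. Inside batch 2 the young arrays differed from the immature by 0.10 (limma, adjusted p 0.60), against 1.08 for the arrays without a stage word (adjusted p 6.4e-06), where 20.4% and 39.4% of all probe sets passed. With batch as a block the 3 differences were 0.66, 0.54 and 0.79 (adjusted p 0.014, 0.046 and 7.9e-04), and 7.35%, 3.86% and 10.1% of all probe sets passed. The block takes a batch difference to be equal in all stage groups. For Cela1, unworded minus young kidney was 0.97 inside batch 2 (limma, adjusted p 5.5e-04) and -0.032 inside batch 3. Young and immature arrays below 600 share only batch 2, so the block value for young is not read as free of batch. Mature and immature arrays below 600 share only batch 1, where mature replicate 5 read 520.5 and the immature arrays 185.7, 276.5 and 318.2.

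Cyfip2 was the other member past the threshold below 600. It fell by 0.49 ± 0.19 on the log2 scale (SE) in mature against immature kidney, a ratio of 1.40-fold, with an adjusted p of 0.041 in limma, where 16.8% of all probe sets were lower. The call was lost with batch as a block (-0.15, adjusted p 0.77), with quantile normalization (-0.47, adjusted p 0.073) and when any 1 of 9 arrays was left out. Without mature replicate 1 the difference was -0.29 (adjusted p 0.12), a smaller value by more than 1.5 times. The other 8 were immature replicates 5, 7, 9, 11 and 12 and mature replicates 10, 13 and 14. Differences of Cyfip2 from immature kidney were -0.15 for young (adjusted p 0.57) and -0.07 for unworded arrays (adjusted p 0.80).

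Ptprj below 600 passed in none of its comparisons. The difference from immature kidney was -0.40 ± 0.31 (SE) for mature, 0.06 ± 0.31 for young and -0.03 ± 0.31 for unworded arrays, with adjusted p of 0.34, 0.90 and 0.95 in limma. The mature difference was -0.03 with batch as a block and -0.14 without the arrays of high GAPDH ratio. It ranged from -0.63 (without immature replicate 6) to -0.28 (without mature replicate 5) when arrays were left out singly. With array weights all 3 passed, at -0.48, -0.58 and -0.59 (adjusted p 0.026, 0.0086 and 0.0054), so the young difference changed sign there. Without weights the 95% interval for mature reached from -1.03 to 0.23.

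Above 600, with 3 arrays a group, 0 of 18 comparisons passed in limma, and 0 had an unadjusted p under 0.05. The fit shares 1 estimate of the spread per probe set over all 55 arrays, of which 43 lie below 600. For Ptprj the SD of a stage group was 0.04 to 0.26 above 600 and 0.62 to 1.11 below. Its intervals above 600 therefore reflect mostly the spread below. The pairs that share a batch are mature with immature and unworded with young kidney. For mature minus immature kidney the differences were 0.34 for Cela1 (95% interval -0.17 to 0.85), -0.12 for Ptprj (-1.30 to 1.06) and 0.20 for Cyfip2 (-0.50 to 0.89), with adjusted p of 0.61, 0.97 and 0.89. Without immature replicate 1 the Cela1 difference was 0.16, and without mature replicate 8 the Cyfip2 difference was 0.063. The ranges over single arrays left out were 0.16 to 0.46 for Cela1, -0.21 to 0.026 for Ptprj and 0.063 to 0.30 for Cyfip2. Over all probe sets 2.91% passed in this comparison. For unworded minus young kidney they were 0.05, -0.11 and -0.16 (adjusted p 0.99, 0.99 and 0.97), where 0.061% of all probe sets passed. The remaining 4 pairs cannot be told apart from batch, and 5.87% (young against immature), 4.44% (unworded against immature), 1.82% (mature against young) and 1.39% (mature against unworded) of all probe sets passed in them. With batch as a block 1 comparison passed, Ptprj in unworded minus immature kidney, where 2.35% of all probe sets did, but with the opposite sign. The difference was 0.51 without the block (adjusted p 0.69) and -1.72 with it (adjusted p 0.036), and the unworded arrays themselves read higher (844.6 to 892.5, against 536.6 to 752.3). Each stage group above 600 lies in 1 batch, so the block takes its batch difference from arrays below 600 alone, and no direction is read from it here. The interval for Cela1 above 600 includes the 0.71 seen below 600, and whether the stage difference is unequal between the sides was not tested.

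**Figure D5:**
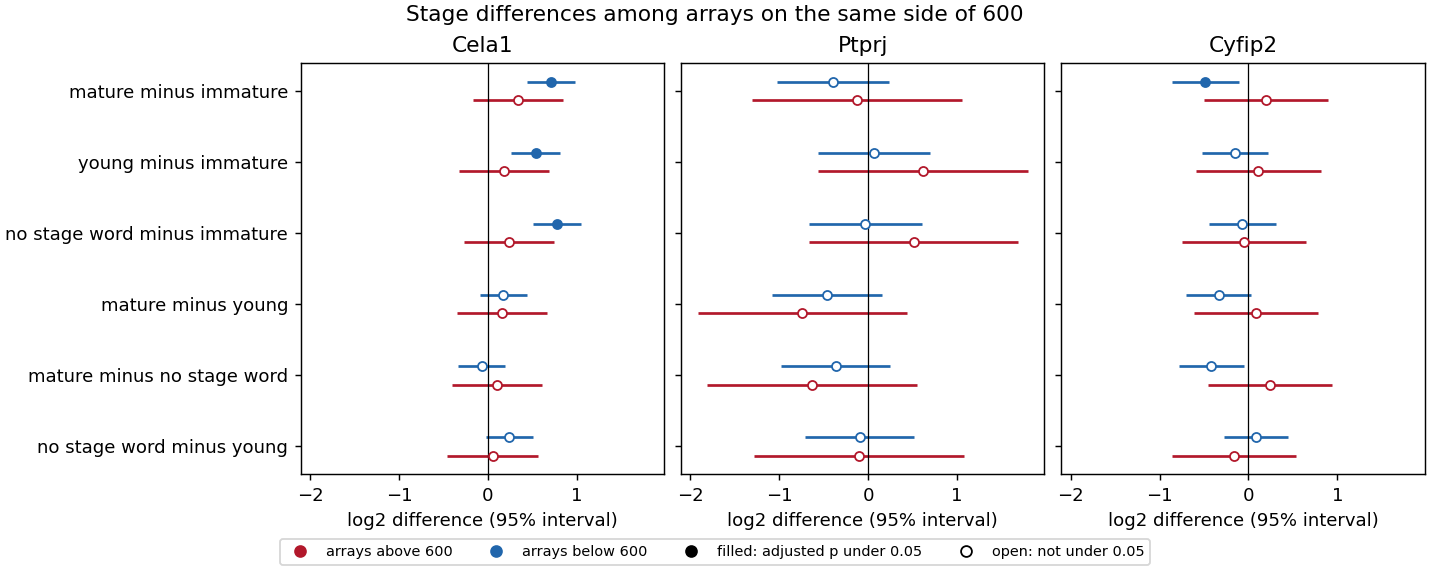
Log2 difference between stage groups for Cela1, Ptprj and Cyfip2, fitted with limma among arrays above 600 (red) and among arrays below 600 (blue) on X56596_at; bars are 95% intervals and filled points have an adjusted p under 0.05. The 4 filled points, all below 600, are Cela1 in its 3 comparisons with immature kidney and Cyfip2 in mature against immature kidney; intervals above 600 are wider.

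Genes listed with the members also differed between mature and immature arrays below 600, where 31% of all probe sets passed. Of the 5 tested WAVE and Rac genes, Nckap1 (-0.83 ± 0.31, adjusted p 0.037), Rac1 (-0.63 ± 0.13, adjusted p 2.8e-04) and Arpc1b (-0.47 ± 0.12, adjusted p 0.0020) fell and Arpc4 (0.53 ± 0.19, adjusted p 0.031) rose. Of 12 receptor tyrosine phosphatase genes, Ptprn, a phosphatase-like protein of secretory granules, rose by 1.04 ± 0.16 (adjusted p 1.5e-06), and Ptprr and Ptprm fell. Of 9 acinar genes Reg1a alone passed, with a rise of 0.48 ± 0.17 (adjusted p 0.026). Of 9 class II and antigen loading genes 7 rose and 0 fell, with a median difference of 0.47 against 0.05 over all probe sets, and of 13 leukocyte markers 6 rose and 0 fell. Values after ± are standard errors on the log2 scale from limma, with adjustment over all probe sets tested, and mature and immature arrays below 600 share only batch 1.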

How the data were processed

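The data are deposited intensities of 8799 probe sets on each of 55 one-colour arrays, linear in scale as the values show. The authors' summary of probes and scaling of arrays is not given in the sources used here. As the 2% trimmed mean was 500.2 to 500.7 on every array, the scaling was kept. Before taking log2, 15.82 (0.1 of the median value) was added to each intensity, so fold changes include this offset and come out too small for dim probe sets. Control probe sets (59) and probe sets with a mean under the 25th percentile were left out, which left 6555. The platform annotation gave 1 gene symbol for 7018 probe sets, several for 308 and none for 1473, and 6994 symbols were updated through RefSeq (GRCr8). For a listed gene the brightest probe set on average was used.

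Stage contrasts inside a side of 600 on X56596_at were fitted with limma 3.58.1 in R 4.3.3 (lmFit and eBayes, 2-sided), over all 55 arrays in groups of stage by side. P-values were adjusted by Benjamini-Hochberg over the 6555 probe sets, and 0.05 was the threshold. The fit was tested on simulated data. Sides were described by whether their arrays overlap. Batches came from Ward clustering of 42 control probe sets into a set number of 3. Named were all probe sets of the members and of RT1-Bb, the first 5 most similar probe sets in each direction, and up to 4 genes of a list, or those that passed. The members and lists were chosen with earlier results of these data known. The stage contrasts given with values, the batches and the motifs were chosen after values were seen. Alternatives changed the offset, scaling, filter, weights, prior variance, threshold, batch handling and arrays. Figures were drawn with matplotlib 3.10.9.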

Additional observations from a re-analysis of the deposited data

Results flagged for a closer look

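A single array stood far from the others for Cyfip2 in 2 of 20 cases looked at. The cases were 5 sets of 7 to 10 arrays, all below 600, on 4 probe sets (the 3 members and X56596_at). The sets were the 10 immature arrays, the 7 of these in batch 2, and the 8 young, 8 unworded and 10 mature arrays of batch 3, so 2 sets share arrays. Chance gives about 1 in 20. Mature replicate 1 read 49.7 for Cyfip2, and the other mature arrays below 600 in its batch read 163.0 to 446.6 (n = 10 with it). Its GAPDH 3′/5′ ratio was 7.18 and its actin ratio 5.08, and the part of RNA quality in the value was not tested. Young replicate 12 read 144.3 for Cyfip2, against 263.7 to 376.0 on the other young arrays below 600 in its batch (n = 8 with it), with a GAPDH ratio of 0.884. The same array had the highest X56596_at value below 600.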

How the results depend on the processing

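No paired analysis was possible because replicate numbers follow accession order and pair no samples. That the members' sides do not overlap was fixed by their choice: no array lies between 263.0 and 1411.5 on X56596_at, so thresholds of 400 and 900 give the same sides, and leaving out arrays cannot create overlap. Under quantile normalization all 3 members stayed without overlap in each stage description. It rescales the same values that chose the members, so this gives no support to the split. Of 18 stage comparisons below 600, 4 passed, against 7 with array weights and 0 with stage groups that ignore the sides, and 3 to 4 without each array in turn. Above 600, 0 passed, against 1 with batch as a block and 0 to 0 without each array in turn.

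None of the 4 differences called below 600 changed sign under the alternatives run. Of the 36 comparisons, 21 changed sign under at least 1 alternative other than leaving out single arrays, and 2 more when 1 array was left out. With batch as a block and above 600, Ptprj turned to -1.72 in unworded minus immature (0.51 without the block), -1.62 in young minus immature, 1.49 in mature minus young and 1.60 in mature minus unworded kidney. Cela1 turned to -0.21 in mature minus young and -0.26 in mature minus unworded, and Cyfip2 to -0.12 in mature minus young and 0.15 in unworded minus immature kidney. Below 600 the block gave Cyfip2 0.14 in young and 0.23 in unworded minus immature, and Ptprj 0.0043 in mature minus unworded kidney. Inside batch 2 below 600, Cyfip2 was 0.16 in young and 0.13 in unworded minus immature, and -0.027 in unworded minus young kidney. Inside batch 3, Cela1 was -0.063 in mature minus young and -0.032 in unworded minus young kidney. With array weights Ptprj below 600 was -0.58 in young minus immature (adjusted p 0.0086), 0.10 in mature minus young and 0.12 in mature minus unworded, and Cyfip2 above 600 was -0.017 in mature minus young kidney.

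With stage groups alone, set against the values above 600, Cyfip2 was -0.35 in mature and -0.11 in young minus immature, -0.24 in mature minus young, -0.28 in mature minus unworded and 0.033 in unworded minus young, and Cela1 -0.031 in mature minus unworded kidney. Set against those below 600, Ptprj was 0.060 in unworded minus immature kidney. Without each array in turn, Ptprj below 600 ranged from -0.17 to 0.16 in young and -0.27 to 0.12 in unworded minus immature, and -0.19 to 0.059 in unworded minus young kidney. Cyfip2 below 600 ranged from -0.12 to 0.0033 in unworded minus immature and -0.015 to 0.16 in unworded minus young. Above 600, Cyfip2 ranged from -0.097 to 0.0046 in unworded minus immature and -0.049 to 0.19 in mature minus young, and Ptprj from -0.21 to 0.026 in mature minus immature kidney. The cause was not tested. Signal over background was not analysed here.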
